A study of Mus musculus with 20 samples.

Results

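Imprinted genes, which are transcribed mainly from the allele of 1 parent, and oncofetal genes, which are active in the embryo and again in tumours, were followed through growth of the mouse plantaris tendon. The 10 genes described here were taken by name from the deposited count table: H19, Dlk1, Meg3, Peg3, Plagl1, Grb10, Mest, Cdkn1c, Hmga2 and Igf2bp2, of 24885 genes listed. All 10 passed the filter on low counts, as did 18918 genes in all. Genomic imprinting marks an allele by DNA methylation laid down in the egg or the sperm, and paternally expressed genes are known for promoting growth of the fetus while several maternally expressed ones restrain it. Most of these genes fall in level after birth, and some of them, H19 and Dlk1 among them, return in regenerating muscle. Hmga2 and Igf2bp2 are not imprinted. They belong to a fetal growth programme that the let-7 microRNAs silence as tissues mature.

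The 20 libraries formed 5 groups of 4, all from mice with the genotype IGF1Rflox/flox, in which exons of the IGF1 receptor gene are flanked by sites for Cre recombinase. The WT groups were ScxCreERT2-/- and so carried no recombinase, and the KO groups were ScxCreERT2+/+, with a tamoxifen-activated Cre under the control of Scx, the gene of a tenocyte transcription factor. WT day 0 had neither tamoxifen nor a growth stimulus, whereas WT day 7, WT day 14, KO day 7 and KO day 14 had both. Tamoxifen and stimulus are therefore not separated in any comparison with day 0, and genotype and the presence of Cre are not separated between KO and WT. A KO group without stimulus was not analysed here. Whether replicates came from separate animals is not stated in the labels. The p-values therefore rest on the variation among these libraries, part or all of which may be technical.

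Library depth ran from 32254411 to 63522834 counts, and the members had between 3 and 92042 counts in a library. Igf1r, the targeted gene, was not lower in KO than in WT, with means of 51.3 against 49.1 CPM (library-size-scaled counts, defined under the processing) at day 7 and 53.1 against 45.3 CPM at day 14. These counts cover all exons and leave unseen whether the floxed stretch was lost. Scx, which marks tenocytes, stood at 50.5 CPM in WT day 7 and 736 CPM in KO day 7, and at 114 and 1249 CPM at day 14. KO also carries the Scx-controlled Cre, and the parts of tenocyte content and of the construct in this gap were not tested. Of the 14 tenocyte markers, 7 were higher in KO at day 7 and 1 at day 14. Their median log2 differences were 0.55 and 0.30. Scx is counted among the tenocyte markers. The 14 tenocyte markers summed to between 55020 and 159700 CPM over all libraries, and no marker was at 0 in all 4 libraries of a group. Markers of other cells moved with the groups. The 28 muscle fibre markers summed to 32610 to 82650 CPM in WT day 0, 334.5 to 2391 in WT day 7, 6494 to 15970 in KO day 7, 3597 to 28570 in WT day 14 and 2090 to 32530 in KO day 14. The 16 tested genes of the myogenic list summed to 944.9 to 2211, 249.5 to 700.7, 755.3 to 2748, 266 to 1695 and 205.2 to 1805 CPM in the same order. From WT day 0 to day 7 that sum fell although 9 of its 16 genes rose and 3 fell, with a median log2 change of 2.30, so the sum follows its abundant genes and not the list as a whole. The adipocyte markers summed to 1535 to 2483 CPM in WT day 0 and 197.7 to 449.7 in WT day 7, where 9 of 9 tested fell, and to 109.5 to 427.1 in the other 3 groups. The chondrocyte markers summed to 115 to 126 CPM in WT day 0, 230.3 to 372.5 in WT day 7, 615.7 to 1250 in KO day 7, 417.3 to 1125 in WT day 14 and 433.9 to 2084 in KO day 14, and 6 of 9 tested were higher at WT day 14 than at day 0. The part of these cells in the members' levels was not tested beyond the muscle scores. The muscle fibre sums did not overlap among WT day 0, WT day 7 and WT day 14, nor between KO day 7 and WT day 7. Fits with the muscle fibre score therefore cannot separate muscle content from group in those comparisons. In these bulk samples, fewer cells of a type and less RNA per cell cannot be told apart. WT day 7 replicate 1 had the highest level of its group for all 8 imprinted members and the lowest for Hmga2 and Igf2bp2. How many of all tested genes were highest or lowest in that library was not counted. Without that library, 7 members in place of 6 were called for WT day 7 against day 0, 4 in place of 5 for WT day 14 against day 7, and 2 in place of 3 for KO against WT at day 7.

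The members lie in 6 imprinted regions and 2 other loci of the mouse genome (GRCm38, GENCODE vM21). H19 (ENSMUSG00000000031, chr7:142575529-142578143, minus strand) and Cdkn1c (ENSMUSG00000037664, chr7:143458339-143461050, minus) share the distal end of chromosome 7. Dlk1 (ENSMUSG00000040856, chr12:109452823-109463336, plus) and Meg3 (ENSMUSG00000021268, chr12:109541001-109571726, plus) are neighbours on chromosome 12. Peg3 (ENSMUSG00000002265, chr7:6703892-6730431, minus), Plagl1 (ENSMUSG00000019817, chr10:13060504-13131694, plus), Grb10 (ENSMUSG00000020176, chr11:11930508-12038683, minus) and Mest (ENSMUSG00000051855, chr6:30723547-30748465, plus) lie in regions of their own. Hmga2 (ENSMUSG00000056758, chr10:120361275-120476469, minus) and Igf2bp2 (ENSMUSG00000033581, chr16:22059009-22163299, minus) complete the list. H19 and Meg3 are long noncoding RNAs and the other 8 code for proteins. Exons of Copg2, on the opposite strand, overlap those of Mest. The strand setting of the counting is not given in the sources used here, so reads of the pair cannot be told apart. The same holds for Hmga2 and 1700006J14Rik, which had a mean of 0.361 CPM over all libraries. Opposite-strand transcripts outside the count table also overlap exons of Cdkn1c, Meg3, H19 and Plagl1. Counts do not separate the parental alleles, so no value here speaks to which allele was read.

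Several members host microRNAs, and these are shown because 2 of the host transcripts had the largest rises among the members. The count table measures the host RNA and not the mature microRNA. H19 contains miR-675 in an exon (5p arm at chr7:142577112-142577133, minus strand), and Mest contains miR-335 outside its annotated exons (5p arm at chr6:30741314-30741336, plus). Sequences are from RefSeq (GRCm38.p6), 5′ to 3′, with the seed, bases 2 to 8, in capitals.
miR-675-5p: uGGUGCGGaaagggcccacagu
miR-675-3p: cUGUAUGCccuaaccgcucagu
miR-335-5p: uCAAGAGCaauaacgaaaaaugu
miR-335-3p: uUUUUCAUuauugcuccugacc

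The next set concerns Hmga2 and Igf2bp2, which both fell between day 7 and day 14 in either genotype. Their transcripts hold perfect matches to the let-7 seed after the stop codon, spelled CTACCTC and searched on the transcript strand of 1 transcript per gene. Hmga2 has 4 such matches, and 8 of 15188 tested coding genes, 0.0527%, have 4 or more. That share is not adjusted for length: Hmga2 has 2977 bases after the stop codon, against a median of 988 over those genes. Igf2bp2 and Peg3 have 1 each, as do 9.26% of those genes, counted as 1 or more. Plagl1, Grb10, Mest, Dlk1 and Cdkn1c have 0. A match describes the letters and is no evidence of binding, and let-7 itself was not measured. Capitals mark the seed of let-7a and, in the transcripts (GENCODE vM21), the 7 bases that match it.
let-7a-5p: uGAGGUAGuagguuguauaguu
Hmga2, base 21 after the stop codon: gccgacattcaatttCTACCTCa
Hmga2, base 1258: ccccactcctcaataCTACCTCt
Hmga2, base 1696: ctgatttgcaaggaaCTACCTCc
Hmga2, base 2554: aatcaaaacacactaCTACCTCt
Igf2bp2, base 1313: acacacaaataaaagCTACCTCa
Peg3, base 616: ggagtgttctgtcccCTACCTCt

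Plagl1 encodes a zinc finger factor known to bind GGGGCCCC, and promoters of the other members were searched for these letters because Plagl1 itself rose. RefSeq promoters (250 bases before to 50 after a start, GRCm38.p6) matched 8 of 10 members with 12 promoters, without H19 and Cdkn1c. The letters occurred, on either strand, in 1 of these 12 promoters and in 1.08% of 32851 promoters. The match lies in the Peg3 promoter (chr7:6730370-6730669, minus strand), 201 bases before the start. The log2 change of Peg3 from WT day 0 was 0.36 at WT day 7 (edgeR adjusted p = 0.154). At WT day 14 it was -0.25 (edgeR adjusted p = 0.35). Whether Plagl1 acts on Peg3 was not tested.
Peg3 promoter, GGGGCCCC in capitals: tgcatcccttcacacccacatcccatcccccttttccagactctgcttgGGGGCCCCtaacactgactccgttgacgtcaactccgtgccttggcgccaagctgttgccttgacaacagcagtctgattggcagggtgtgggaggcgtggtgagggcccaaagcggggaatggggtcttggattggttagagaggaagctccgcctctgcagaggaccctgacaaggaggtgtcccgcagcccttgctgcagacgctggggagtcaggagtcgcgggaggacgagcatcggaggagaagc

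The first comparison, WT day 7 with WT day 0, asks what changes within a week of growth and tamoxifen. H19 and Mest had the largest changes, at 21.4-fold and 22.9-fold higher (Mest 14.7-fold without 1 library), followed by Hmga2 at 8.98-fold, Grb10 at 6.29-fold, Plagl1 at 4.21-fold and Meg3 at 2.57-fold. For all 6 of these genes, every day 7 library lay above every day 0 library. How many of all tested genes separate in this way was not counted, here or in later comparisons. Dlk1, Peg3, Cdkn1c and Igf2bp2 did not pass. Thus 6 of 10 members were called, all higher, against 64.1% of all tested genes in either direction (edgeR's quasi-likelihood test, Benjamini-Hochberg adjusted p below 0.05), so the number called is near the background. The members' median log2 change was 1.72 and that of all tested genes 0.02. The members were chosen with earlier results of these data known, so their median is no test against the background. The 6 calls held without each library in turn and under every other setting tried.

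**Figure D1:**
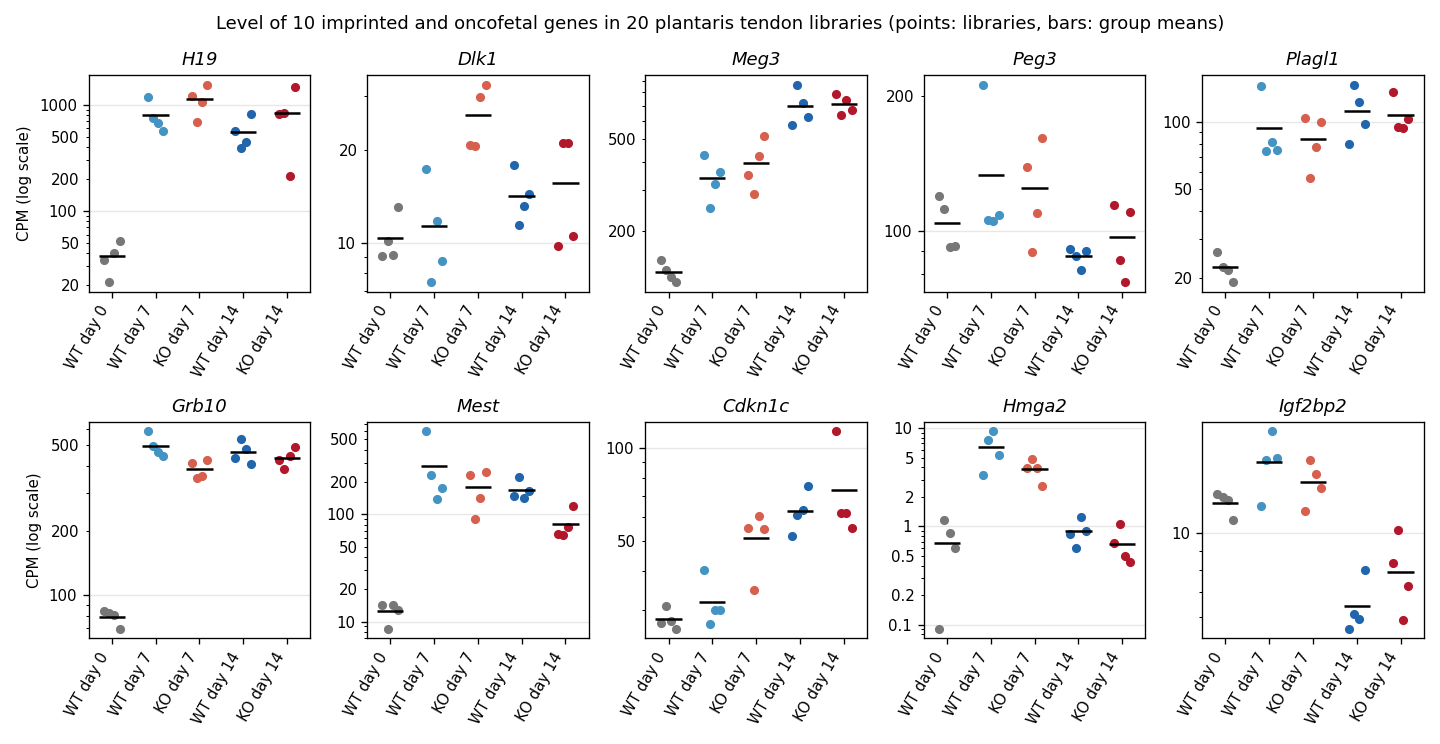
CPM (log scale) of each member in all 20 libraries, by group; points are libraries in the order of their replicate numbers and bars are means of 4. H19, Meg3, Plagl1, Grb10 and Mest are higher in every stimulated library than in every WT day 0 library, and Hmga2 is high in the day 7 groups.

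H19, a maternally expressed noncoding RNA known for restraining growth, shares its region with Igf2 and is known from embryonic and regenerating muscle. H19 stood at 34.4, 21.5, 40.5 and 52.7 CPM in WT day 0 and at 1189.7, 747.5, 680.5 and 572.3 CPM in WT day 7 (means 37.3 ± 13 and 797 ± 271, SD, n = 4). Its log2 change was 4.42 ± 0.50 (SE; edgeR adjusted p = 7.96e-07). Mest, an enzyme-like protein of the endoplasmic reticulum tied to fetal growth and fat cell size, had 14.1, 8.60, 14.2 and 12.7 CPM at day 0. At WT day 7 it had 590.4, 231, 139.5 and 174 CPM (mean 284 ± 208). The change of Mest was 4.52 ± 0.47 on the log2 scale (edgeR adjusted p = 3.31e-07). Without replicate 1, which lay far above the other 3 at day 7, Mest was 14.7-fold higher (3.87; edgeR adjusted p = 8.45e-08), and with the muscle fibre score the change was 5.28. All 4 day 7 libraries lay above the highest day 0 library of Mest. Plagl1, an imprinted regulator of other imprinted genes, went from 26.1, 22.4, 21.7 and 19.3 CPM to 146, 74.3, 81.8 and 74.9 CPM. It rose by 2.08 ± 0.25 (edgeR adjusted p = 1.05e-06).

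Grb10 codes for an adaptor that binds the insulin and IGF1 receptors and dampens their signal. Its libraries lay close together within groups, at 84.0, 82.4, 80.7 and 69.6 CPM in WT day 0 and 581, 499.5, 464 and 448 CPM in WT day 7. The rise was 2.65 ± 0.11 on the log2 scale (edgeR adjusted p = 1.5e-12). Meg3, a maternally expressed noncoding RNA, rose from 149, 136, 125 and 120 CPM (mean 132 ± 12.7) to 428, 252, 320.5 and 360.4 CPM, by 1.36 ± 0.17 (edgeR adjusted p = 1.23e-06). Hmga2, a chromatin protein of embryonic and dividing cells, was the scarcest member. Its level was 0.0917, 1.17, 0.854 and 0.602 CPM at day 0, where the lowest library rested on 3 counts, and 3.36, 7.52, 9.24 and 5.36 CPM at WT day 7. Hmga2 rose by 3.17 ± 0.45 (edgeR adjusted p = 5.35e-06), and by 2.42 with the muscle fibre score as a covariate (adjusted p = 0.0209).

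The 4 members without a call overlapped between the groups. Dlk1, a membrane protein that holds back fat cell differentiation, had 7.51 to 17.4 CPM at WT day 7 and 9.08 to 13.1 at day 0. Its log2 change was 0.13 (95% interval -0.46 to 0.73). Cdkn1c, the cell cycle inhibitor p57, changed by 0.19 (-0.24 to 0.62). Peg3, a zinc finger protein, changed by 0.36 (-0.09 to 0.81), with 1 library at 212 CPM and the other 3 between 105 and 109, and passed with the muscle fibre score as a covariate (0.91; edgeR adjusted p = 0.0427). Igf2bp2, which binds and stabilises growth-related mRNAs, changed by 0.36 (0.03 to 0.69; edgeR adjusted p = 0.055), and it passed with upper-quartile scaling, in the fit to the compared groups alone and without WT day 7 replicate 1.

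The second comparison, WT day 14 with WT day 0, asks which changes were present after 2 weeks. H19, Mest, Grb10, Plagl1 and Meg3 were again higher and Cdkn1c joined them, while Igf2bp2 was lower and Hmga2 was back near its day 0 level. Of the 10 members, 7 passed, 6 up and 1 down, against 54.3% of all tested genes. The median log2 change of the members was 1.75 against 0.02, with the same limit from their choice. All 7 were called under every setting and without any 1 library. H19 had 569, 394, 447 and 819.6 CPM at WT day 14, a change of 3.90 ± 0.49 (edgeR adjusted p = 4.39e-06). Mest had 147, 222, 141 and 166 CPM, a change of 3.77 ± 0.45 (edgeR adjusted p = 3.18e-06). Grb10 and Plagl1 changed by 2.55 ± 0.11 and 2.33 ± 0.25. These 4 genes held levels at day 14 that overlapped those of day 7.

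Meg3 rose again after day 7, and Cdkn1c, which had not passed in the first week, rose in the second. Meg3 reached 580.0, 865, 719.9 and 626 CPM at WT day 14, 5.27-fold above day 0 (log2 change 2.40 ± 0.18; edgeR adjusted p = 2.89e-09). Cdkn1c was at 27.1, 30.9, 27.5 and 26.0 CPM in WT day 0, at 40.4, 26.9, 29.9 and 30.0 in WT day 7 and at 51.9, 61.0, 63.0 and 75.3 in WT day 14. Every day 14 library of Cdkn1c lay above every library of the other WT groups, and the change from day 0 was 1.17 ± 0.21 (edgeR adjusted p = 0.000121). Igf2bp2 moved the other way, from 12.7, 12.4, 12.3 and 10.8 CPM in WT day 0 to 5.60, 6.11, 5.93 and 7.98 CPM in WT day 14, and fell by 0.91 ± 0.16 (edgeR adjusted p = 9.66e-05). Hmga2 changed by 0.34 (95% interval -0.61 to 1.29) and Dlk1 by 0.46 (-0.14 to 1.05). Dlk1 passed in the fit to the compared groups alone (edgeR adjusted p = 0.0414). Peg3 was lower in each WT day 14 library, at 81.6 to 91.0 CPM, than in each day 0 library, at 92.0 to 119 CPM, yet did not pass (log2 change -0.25; edgeR adjusted p = 0.35).

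**Figure D2:**
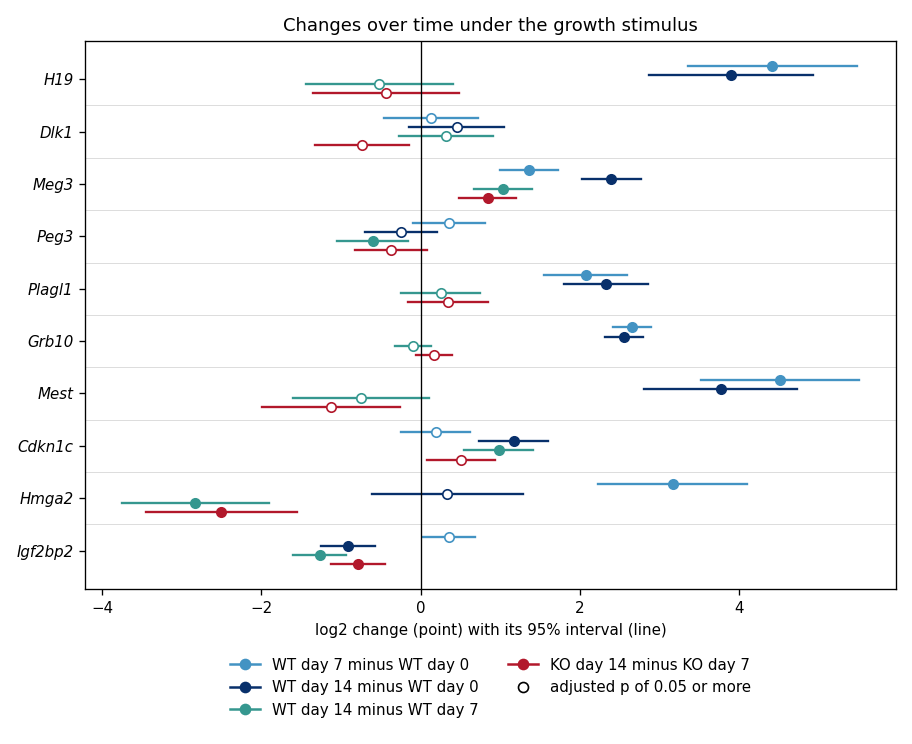
Log2 change of each member with its 95% interval in 4 comparisons over time; filled points passed the adjusted threshold and open points did not. H19, Mest, Plagl1 and Grb10 separate day 0 from both later days, Meg3 separates all 3 days, and Hmga2 and Igf2bp2 have negative changes from day 7 to day 14 in both genotypes.

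Between WT day 7 and WT day 14, 5 of 10 members passed, 2 up and 3 down, against 30.4% of all tested genes. Meg3 rose by 1.04 ± 0.17 (edgeR adjusted p = 0.000198) and Cdkn1c by 0.98 ± 0.21 (adjusted p = 0.00165), although Cdkn1c missed with the muscle fibre score as a covariate (0.83; adjusted p = 0.0552). Hmga2 fell 7.11-fold, to 0.845, 0.611, 1.24 and 0.906 CPM (log2 change -2.83 ± 0.44; edgeR adjusted p = 0.000123). Igf2bp2 fell 2.41-fold from 11.8, 15.6, 18.6 and 15.8 CPM (log2 change -1.27 ± 0.16; adjusted p = 1.9e-05), and the groups of both genes were apart. Peg3 fell by 0.60 ± 0.21 (adjusted p = 0.041), and this call lay near the threshold. Without WT day 7 replicate 1 the change of Peg3 was -0.28 (adjusted p = 0.222). Without any 1 of the 4 WT day 14 libraries the change was -0.57 to -0.61, with adjusted p between 0.0694 and 0.0936. The call was also lost without a filter, with limma-voom, in the fit to the compared groups alone and with the myogenic score as a covariate.

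In the KO groups the same interval, KO day 7 to KO day 14, gave 3 calls of 10, against 15.7% of all tested genes, and all 3 genes were ones called in WT with the same sign. Meg3 rose by 0.85 ± 0.17 (edgeR adjusted p = 0.00293), from 349.7, 289, 424 and 518 CPM to 785, 639.6, 745 and 671 CPM. Hmga2 fell 5.67-fold, from 3.95, 4.82, 3.92 and 2.56 CPM to 0.682, 1.07, 0.505 and 0.433 CPM (log2 change -2.50 ± 0.45; adjusted p = 0.00142). Igf2bp2 fell by 0.79 ± 0.16 (adjusted p = 0.00315), from 11.4, 15.7, 14.4 and 13.2 CPM to 8.36, 10.2, 5.88 and 7.24 CPM. These 3 calls held without each library and under every setting. Mest at -1.13 (adjusted p = 0.0713), Dlk1 at -0.73 (adjusted p = 0.0853) and Cdkn1c at 0.51 (adjusted p = 0.0994) did not pass. Dlk1 passed with DESeq2 and with limma-voom (adjusted p = 0.0433 and 0.0465). Mest passed without KO day 7 replicate 2 (-1.34; adjusted p = 0.0468), without KO day 14 replicate 4 (-1.37; adjusted p = 0.049) and with the muscle fibre score (-1.20; adjusted p = 0.0441).

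Markers of cycling cells and macrophages changed over the same days. The 12 cycling markers rose in 12 of 12 cases from WT day 0 to day 7 and fell in 12 of 12 from WT day 7 to day 14. Their sums were 60.85 to 79.09 CPM in WT day 0, 559.6 to 775.1 in WT day 7, 406 to 593.6 in KO day 7, 154 to 362.7 in WT day 14 and 209.9 to 332.3 in KO day 14. The 12 macrophage markers also rose in 12 of 12 cases in the first week of WT and fell in 11 of 12 in the second, with sums of 2003 to 2321, 4331 to 7424, 4428 to 6179, 3512 to 4050 and 3071 to 3715 CPM in that order of groups. From KO day 7 to day 14, 9 of 12 cycling and 9 of 12 macrophage markers fell. Igf2bp2, unlike Hmga2, did not pass in the first week. The part of these markers in the levels of Hmga2 and Igf2bp2 was not tested.

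The comparison of KO day 7 with WT day 7 asks what the targeting of Igf1r in tenocytes changes after a week of growth. Dlk1 was 2.28-fold higher in KO and Cdkn1c 1.61-fold higher, and Grb10 was 1.28-fold lower. Those 3 of 10 members passed, against 14.8% of all tested genes, and the members' median log2 change was -0.12 against -0.01. Dlk1 had 20.8, 20.7, 29.9 and 32.6 CPM in KO day 7 and 17.4, 7.51, 11.8 and 8.76 CPM in WT day 7. Every KO library was above every WT library (log2 difference 1.19 ± 0.28; edgeR adjusted p = 0.0109), and the call held without each of the 8 libraries, at 1.05 to 1.48 over all settings. Grb10 had 414, 351, 361 and 428 CPM in KO and fell by 0.36 ± 0.11 relative to WT (edgeR adjusted p = 0.0318), with no overlap. Cdkn1c had 55.3, 34.8, 60.4 and 54.8 CPM in KO, a difference of 0.69 ± 0.21 (edgeR adjusted p = 0.0321), and KO replicate 2 lay within the WT range.

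The calls of Grb10 and Cdkn1c lay near the threshold, and each was lost when 1 of several libraries was left out. Grb10 was lost without WT day 7 replicate 1 or 2 or KO day 7 replicate 2 or 3 (adjusted p = 0.0782 to 0.106), with differences of -0.27 to -0.35. Cdkn1c was lost without WT day 7 replicate 2, 3 or 4 or KO day 7 replicate 1, 3 or 4 (adjusted p = 0.058 to 0.0958), with differences of 0.61 to 0.67. RNA levels of muscle fibre markers also differed between the groups. Of the 28 muscle fibre markers 20 were higher in KO day 7, as were 1 of 16 myogenic and 6 of 9 tested chondrocyte markers. So were 7 of 14 tenocyte markers, Scx among them, and 2 of 12 macrophage markers were lower. With the muscle fibre score as a covariate, 0 of the 10 members passed at this day, when Dlk1 differed by 1.17 (adjusted p = 0.0809), Cdkn1c by 0.55 (adjusted p = 0.26) and Grb10 by -0.32 (adjusted p = 0.212). That covariate took the number called among all tested genes from 2802 to 988, while the difference of Dlk1 was 1.19 without it. The muscle fibre sums of KO day 7 and WT day 7 did not overlap, so this fit cannot separate muscle content from genotype. With the myogenic score as the covariate all 3 passed (adjusted p = 0.015 for Dlk1, 0.047 for Cdkn1c and 0.0443 for Grb10).

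**Figure D3:**
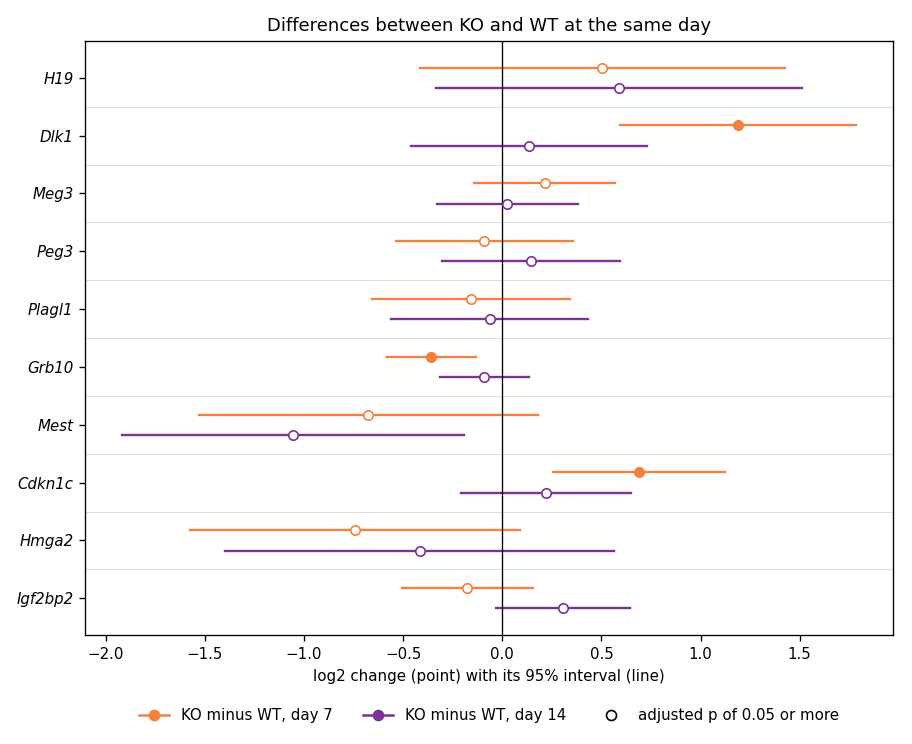
Log2 difference of each member between KO and WT at day 7 and at day 14, with its 95% interval; filled points passed the adjusted threshold. Dlk1, Cdkn1c and Grb10 passed at day 7, and no member passed at day 14.

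At day 14 no member differed between KO and WT by the same test, against 1.78% of all tested genes. With edgeR 1 member had an unadjusted p below 0.05, and DESeq2 and limma-voom each called 0 members. The 1 was Mest, at 65.1, 64.4, 76.3 and 119.5 CPM in KO day 14 and 147, 222, 141 and 166 CPM in WT day 14. Every KO library of Mest lay below every WT library, with a log2 difference of -1.06 ± 0.41 (95% interval -1.92 to -0.19; edgeR adjusted p = 0.201). Dlk1 had 9.78, 21.1, 21.2 and 10.6 CPM in KO day 14, 2 libraries above and 2 below the WT range of 11.5 to 17.9 CPM, with a difference of 0.14 (-0.46 to 0.73). Cdkn1c differed by 0.22 (-0.21 to 0.65) and Grb10 by -0.09 (-0.31 to 0.13). H19 ranged from 214.8 to 1479.6 CPM in KO day 14 and its interval ran from -0.33 to 1.51.

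The difference between the KO effects at the 2 days, tested as an interaction, passed for 0 members and for 0% of all tested genes with edgeR. Unadjusted, 2 members had p below 0.05, and neither DESeq2 nor limma-voom called a member, although DESeq2 called 171 genes in the table. Those 2 were Dlk1 (-1.06 ± 0.40; edgeR adjusted p = 0.35) and Igf2bp2 (0.48 ± 0.23; adjusted p = 0.456). The KO-minus-WT difference of Dlk1 at day 7 is thus not shown to differ from that at day 14. In the authors' deposited table Dlk1 in KO day 7 was 1.30 above WT day 0 on the log2 scale (false discovery rate 0.000653), and Cdkn1c was 0.86 above it (0.00169).

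Muscle markers stood beside H19 in several libraries. The library with the lowest H19 level in KO day 14, replicate 3 at 214.8 CPM, also had the lowest sums of that group, 205.2 CPM over the 16 myogenic markers and 2090 CPM over the 28 muscle fibre markers. Replicate 4 had the highest H19 level, 1479.6 CPM, and the highest sums, 1805 and 32530 CPM. The libraries were in the same order by H19 as by the myogenic sum in WT day 0, WT day 14 and KO day 14, and in another order in WT day 7 and KO day 7. In WT day 7, for example, replicate 4 had the lowest H19 level and the second highest myogenic sum, 566.2 CPM. Myog, a factor of muscle differentiation, and Mymk, needed for myoblast fusion, stood at means of 0.630 and 0.0945 CPM in WT day 0 and 11.9 and 11.9 CPM in WT day 7, while Ckm, of mature fibres, went from 2717 to 37.1 CPM. With the muscle fibre score as a covariate the change of H19 from WT day 7 to day 14 was -2.06 (adjusted p = 0.00114; -0.52 and adjusted p = 0.406 without it), and from KO day 7 to day 14 it was -0.88 (adjusted p = 0.0247). The first-week change of H19 in WT, 4.42 without a covariate, was 6.72 with the muscle fibre score (adjusted p = 4.02e-08) and 3.38 with the myogenic score (adjusted p = 7.12e-08). Its change from WT day 0 to day 14, 3.90 without, was 4.66 and 3.29. The muscle fibre sums of the WT groups did not overlap, so fits with that score cannot separate muscle content from day in WT. That score includes Tnni1, the gene most similar to H19 over the 20 libraries (r = 0.965). How much of the H19 level comes from muscle was not tested otherwise.

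**Figure D4:**
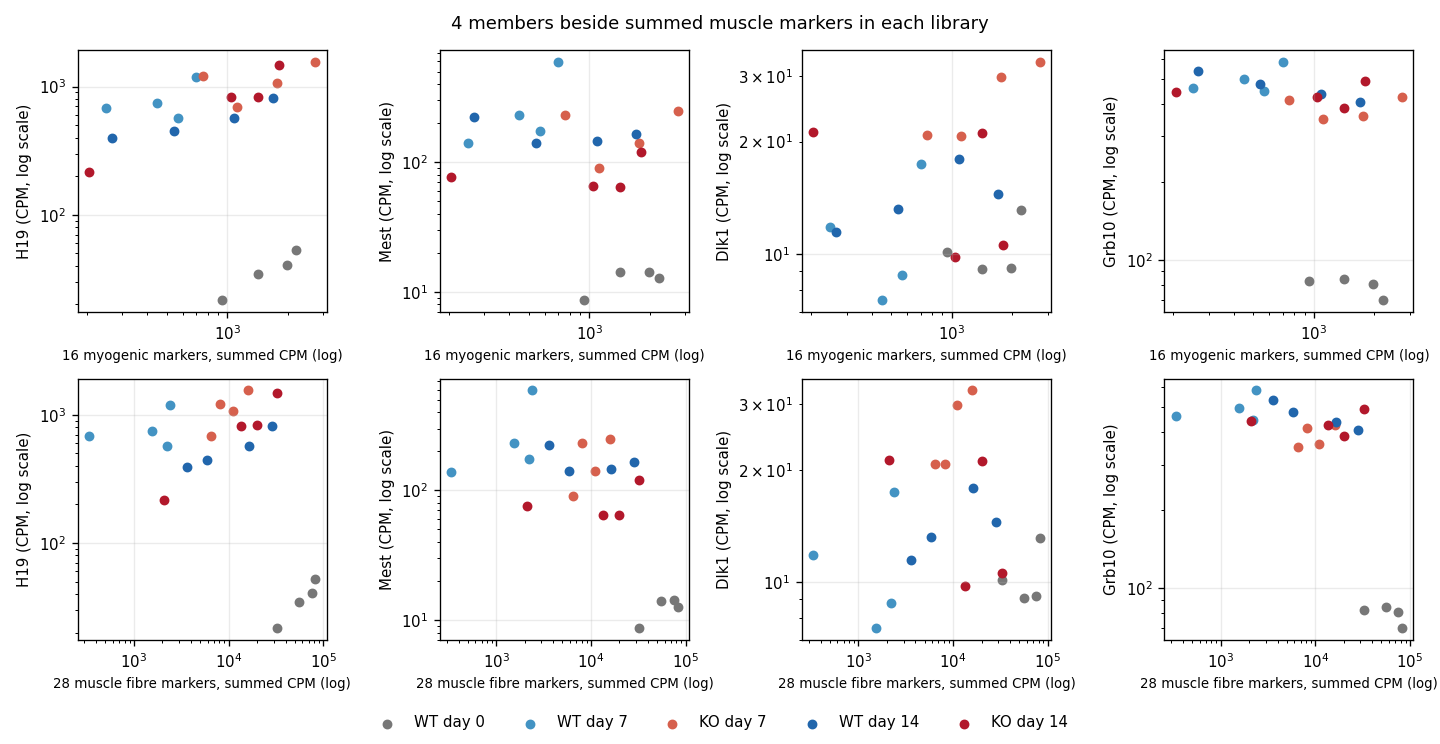
CPM of H19, Mest, Dlk1 and Grb10 (vertical, log scale) against the summed CPM of 16 myogenic (top) and 28 muscle fibre markers (bottom) in each library (horizontal, log scale), coloured by group. H19 is ordered with the myogenic sum within WT day 0 and KO day 14 is spread widely on both axes, while Grb10 stays between 351 and 581 CPM in all 16 stimulated libraries.

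Imprinted genes within 1.5 Mb of a member, 21 in all, were then described by region. They come from a list of 60 further imprinted genes, of which 57 were in the table and 55 were tested. In that list 16 rose and 23 fell from WT day 0 to day 7, 18 and 17 from day 0 to day 14, and 19 and 6 from WT day 7 to day 14. From KO day 7 to day 14, 11 rose and 3 fell, and between KO and WT 6 were higher and 3 lower at day 7 and 0 passed at day 14. In the same order of comparisons, 64.1%, 54.3%, 30.4%, 15.7%, 14.8% and 1.78% of all tested genes were called in either direction. The median log2 change of the list in the first week was -0.24, against 0.02 for all tested genes. Tfpi2, an inhibitor of serine proteases, had the smallest p of the list in the first week (log2 change 4.34 ± 0.16; edgeR adjusted p = 2.06e-13), and Peg13 and Zrsr1 changed by -1.46 and -1.51. The distance rule was chosen after values were seen.

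In the region of chromosome 12, the maternally expressed noncoding RNAs rose with Meg3. Rian rose from 37.9 ± 4.44 CPM in WT day 0 to 200.4 ± 27.1 in WT day 7 and 280.2 ± 50.7 in WT day 14, and Mirg from 3.04 ± 0.746 to 12.6 ± 1.72 and 27.6 ± 7.38 CPM. From WT day 7 to day 14 the log2 change was 1.04 for Meg3, 0.48 for Rian (adjusted p = 0.0175) and 1.13 for Mirg (adjusted p = 0.00145). All 3 also rose from KO day 7 to day 14, Rian by 0.67 and Mirg by 0.90. The paternally expressed genes there did not move as one. Rtl1, a retrotransposon-derived gene, had a log2 change of 3.96 at WT day 14 against day 0 (adjusted p = 2.45e-07) and Begain 1.66, Dio3, which inactivates thyroid hormone, had -1.80 (adjusted p = 0.000331), and Dlk1 did not pass. An antisense transcript is known at Rtl1, and without the strand setting reads of the pair cannot be told apart.

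On distal chromosome 7, Igf2, the growth factor next to H19, was scarce, with means of 0.977 CPM in WT day 0, 2.71 in WT day 7, 8.97 in KO day 7, 3.36 in WT day 14 and 4.90 in KO day 14. It rose by 1.47 in the first week of WT (adjusted p = 0.0174) and was 1.72 ± 0.48 higher in KO than WT at day 7 (adjusted p = 0.0236), where the groups overlapped. Its KO day 7 libraries had 5.40, 3.25, 10.9 and 16.4 CPM, and the myogenic sums of the same libraries were 755.3, 1114, 1762 and 2748 CPM. Around Cdkn1c, its neighbours Cd81, Osbpl5 and Slc22a18 rose with it from WT day 7 to day 14, by 0.69, 0.60 and 0.52. Tssc4 rose by 0.32, and Th, with a mean of 0.0250 CPM in WT day 7, by 5.28. Not called were the noncoding RNA Kcnq1ot1 at 0.05 (adjusted p = 0.825), Nap1l4 at -0.08, Ascl2 at 0.0084 and Igf2 at 0.30. In that comparison 30.4% of all tested genes were called. Cd81 and Osbpl5 were, like Cdkn1c, higher in KO day 7 than WT day 7, by 0.31 and 0.56. Their first-week changes in WT were -0.33 and -0.68, both called, where Cdkn1c had 0.19.

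Neighbours of the other members went separate ways. Beside Grb10, Ddc, an enzyme of amine synthesis, rose by 3.25 in the first week of WT, and Cobl fell by 3.74. Beside Mest, Klf14 rose by 1.87 and fell by 1.74 from KO day 7 to day 14, and the overlapping Copg2 rose by 0.39 in the first week. Phactr2, next to Plagl1, fell by 0.76, and Zim1 and Usp29, next to Peg3, did not pass in any comparison.

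**Figure D5:**
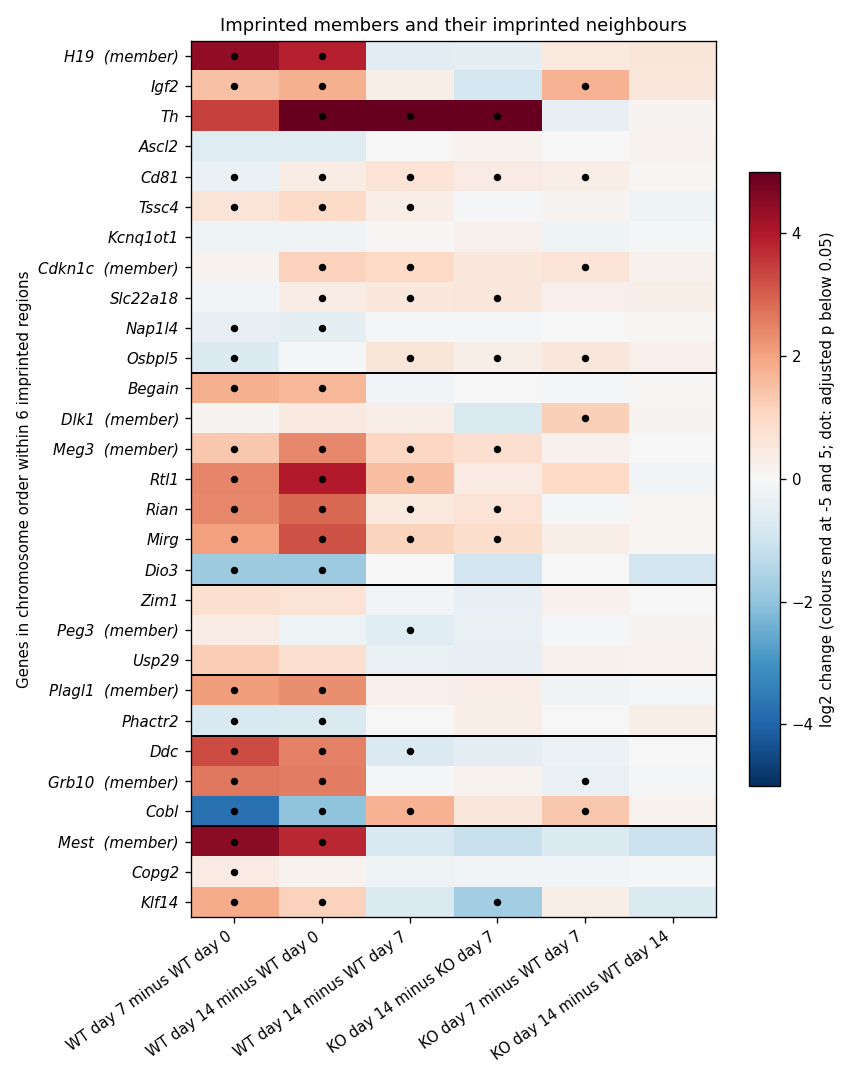
Log2 change (colour) of 8 imprinted members and their 21 imprinted neighbours in chromosome order, with a dot where adjusted p was below 0.05; thick lines separate 6 regions. Meg3, Rian, Mirg, Rtl1 and Begain were higher at both later WT days than at WT day 0. Beside them, Dio3 was lower at both days and Dlk1 did not pass at either. Th had no counts in WT day 0, so that its colours against day 0 are no measured fold.

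Partners of the oncofetal members were followed in the same way. Hmga1, the close relative of Hmga2, rose by 0.58 in the first week of WT (adjusted p = 0.00466) and fell by 1.02 in the second, and it fell by 0.996 from KO day 7 to day 14. Igf2bp3 rose by 1.95 in the first week and had -0.39 (adjusted p = 0.354) in the second, unlike Igf2bp2. Igf2bp1 had means of 0.00637 to 0.0383 CPM and was too scarce to test. Igf2r, the receptor that clears IGF2, rose by 1.01 in the first week. Of 21 tested genes on a list of further let-7 and oncofetal genes, Hmga1 among them, 10 rose and 7 fell from WT day 0 to day 7, 5 and 6 from day 0 to day 14, and 3 and 7 from WT day 7 to day 14. In KO 3 rose and 2 fell from day 7 to day 14, and KO differed from WT for 1 up and 2 down at day 7 and for 0 at day 14. Of all tested genes, 64.1%, 54.3%, 30.4%, 15.7%, 14.8% and 1.78% were called in these comparisons, in the same order. Ezh2, a histone methyltransferase, rose by 1.08 in the first week and fell by 0.57 in the second, and Hoxa9 did the reverse, at -1.32 and 0.84.

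Levels were compared between members only per kilobase of merged exons. H19 ranked first in all 5 groups, at 15.2 ± 5.27 CPM per kb in WT day 0 and 324 ± 110 in WT day 7, and Hmga2 ranked last in all 5, at 0.10 and 0.941 CPM per kb. Mest moved from the sixth place in WT day 0, at 3.15 CPM per kb, to the second in WT day 7, at 72.0, and Cdkn1c from the second, at 13.7, to the fifth, at 15.6.

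For each member the 3 genes with the most similar log2 CPM over the 20 libraries were listed by Pearson's r, among genes with a mean of at least 5 CPM. The libraries share 5 groups, so r mostly follows group differences and is given as a description. H19 was nearest to Tnni1, Maged2 and Tnnt2 (r = 0.965, 0.961 and 0.958), of which Tnni1 and Tnnt2 code for troponins of slow and of heart and developing muscle. Meg3 was nearest to the matrix gene Sparc (0.976), Fzd6 and Mirg, and Grb10 to Rcn1, Wisp1 and Gpx7 (0.992, 0.992 and 0.991). Plagl1 was nearest to Ptn (0.973), Zfp57, a factor that maintains imprints (0.972), and Stk36. Mest was nearest to Atxn10, Dsn1 and Cdk4, Cdkn1c to Mxd4, Rab36 and Scarf2, Hmga2 to Otulinl, Il10rb and Syk, and Igf2bp2 to Ripor2, Plbd1 and Fgd3, with r between 0.915 and 0.962. Dlk1 and Peg3 had no close companion, the highest r being 0.763 with Hebp1 and 0.738 with Samd5.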

How the data were processed

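RNA of 20 plantaris tendon libraries was extracted with a kit that keeps small RNA, and libraries followed standard Illumina protocols, per the labels' protocols. The authors deposited raw counts per gene. The submitters' processing notes name STAR, FastQC, edgeR and mm10. For tool versions, annotation and strandedness of the counting, the sources used here give nothing. A second deposited table holds the authors' edgeR comparisons, with log2 fold changes, average log2 CPM, p-values and false discovery rates per the file headers, and it entered no test.

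Here the counts were fitted with edgeR 4.0.16 (R 4.3.3, limma 3.58.1) after the default filterByExpr and TMM scaling. The model had 1 mean per group over all 20 libraries, and robust quasi-likelihood F tests were adjusted by Benjamini-Hochberg over 18918 genes, with a threshold of 0.05. CPM divides a count by the TMM-scaled library total, expressed per 1e+06 counts, and log2 CPM used a prior count of 2. SE is the log2 change divided by the root of F. The members and lists were chosen with earlier results of these data known. The rule for named genes covered the 10 members, their partners, Igf1r and Scx, 4 markers, up to 4 called genes per list and comparison with the smallest p, and the 3 nearest genes per member. Imprinted neighbours outside it were named after their values were seen. Other settings were upper-quartile or RLE scaling, no filter or a filter of 1 CPM in 4 libraries, a fit of only the compared groups, a replicate block, limma-voom or DESeq2 1.42.0 in place of edgeR, a muscle fibre or myogenic score (the mean log2 CPM of the list) as covariate, and each library left out. The fitting was tested on simulated data. Libraries of a group always differed by more than counting noise (lowest chi-square / df 15.4). Of 24885 gene IDs 24874 matched GENCODE vM21.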

Additional observations from a re-analysis of the deposited data

Results flagged for a closer look

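In 3 of 50 groups of 4 libraries, 1 library of a member stood apart by Dixon's criterion at the 95% level, where chance gives about 1 group in 20. Peg3 stood at 212 CPM in WT day 7 replicate 1, with the other 3 libraries at 105 to 109 CPM, and the fall of Peg3 from WT day 7 to day 14 was lost without that library. Plagl1 stood at 146 CPM in the same library, with the others at 74.3 to 81.8 CPM, and its first-week rise was called without it. Cdkn1c stood at 113 CPM in KO day 14 replicate 1, with the others at 55.1 to 61.9 CPM, and without it the KO effect on Cdkn1c at day 14 was -0.07 in place of 0.22. In WT day 7 replicate 1 all 8 imprinted members were at the highest level of their group, among them Mest (590.4 CPM), H19 (1189.7 CPM), Meg3 (428 CPM), Grb10 (581 CPM), Cdkn1c (40.4 CPM) and Dlk1 (17.4 CPM), while Hmga2 (3.36 CPM) and Igf2bp2 (11.8 CPM) were at their lowest. The share of all tested genes at their highest or lowest there was not counted.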

How the results depend on the processing

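The number of members called stayed within 1.5 times of the reported one except as follows. With the muscle fibre score as a covariate it was 5 for KO day 14 against KO day 7, where H19 and Mest joined the 3, and 0 for KO against WT at day 7, where 3 were called. Without WT day 7 replicate 2 or KO day 7 replicate 3 the latter was 1, Dlk1. Leaving out each library in turn gave 6 to 7 for WT day 7 against day 0, 7 for WT day 14 against day 0, 4 to 5 for WT day 14 against day 7, 3 to 4 for KO day 14 against day 7, 1 to 2 for KO against WT at day 7, and 0 for KO against WT at day 14 and for the interaction. With the replicate number as a block the counts were 6, 7, 5, 3, 3, 0 and 0 in that order, and no member's call changed. The numbers do not pair the libraries: same-numbered ones had correlations of deviations from -0.143 to 0.272, no comparison had all pairs above 0.1, and 1 to 3 of 4 libraries correlated best with their own number.

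Of 1340 single values, 1279 kept direction and call, 23 lost the call, 12 gained it and 26 changed sign, all 26 without a call. For KO day 14 against day 7, H19 was 0.18 with the myogenic score. For KO against WT at day 7, H19 was -0.91 with the muscle fibre score. The interaction of Hmga2 was -0.082 with that score, and that of H19 was -0.16 with limma-voom. Leaving out each library gave signs of both kinds for Dlk1 in WT day 7 against day 0 (-0.15 to 0.28). For KO against WT this held at day 7 for Peg3 (-0.24 to 0.24) and Plagl1 (-0.26 to 0.14). At day 14 it held for Meg3 (-0.048 to 0.15), Plagl1 (-0.20 to 0.095), Cdkn1c (-0.074 to 0.33) and Dlk1 (-0.044 to 0.31). For the interaction it held for H19 (-0.34 to 0.40), Peg3 (-0.089 to 0.38) and Plagl1 (-0.20 to 0.25).

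Among all tested genes, the muscle fibre score took the calls from 12133 to 6923 in the first week of WT and from 5745 to 2955 in the second. Leaving out libraries gave 1693 to 2956 for KO day 14 against day 7 (2962 with all), 1440 to 2659 for KO against WT at day 7 (2802), 152 to 1672 at day 14 (337) and 0 to 11 for the interaction (0). At day 14 the compared groups alone gave 86 and DESeq2 709. The causes were not tested. Depth limits Hmga2 most, with 3 counts in 1 library.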
